A study of Mus musculus with 4 samples.

Results

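The Fc gamma receptor genes Fcgr1, Fcgr2b, Fcgr3 and Fcgr4, together with Fcer1g, which encodes the signalling chain shared by the activating receptors, were followed in single classical monocytes of young and old mice. These 5 genes were taken by symbol from the 27998 genes listed in each of the 2 count matrices, and all 5 were found in both. They were picked with their old-against-young levels and their detection and co-detection per cell already known. The age differences, detection shares and co-detection below are therefore descriptions without a test. Ly6C-high classical monocytes (Ly6G-CD11b+CD115+Ly6Chi by flow sorting) came from the bone marrow of wild-type C57BL/6 mice that had received no treatment named in the labels. Per the study's methods, the male mice had reached 14 weeks (young) or 27 months (old) and the female mice 15 weeks (young) or 26.5 months (old). Each of these 4 groups held 5 mice. Each mouse carried its own hashtag antibody, all 10 mice of a sex were pooled before sorting into 1 library, and the sexes were run as separate experiments, so sex and experiment cannot be told apart.

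Fc gamma receptors bind the constant part of IgG and let phagocytes take up antibody-coated particles and immune complexes. Fcgr1 encodes the high-affinity receptor, which can hold monomeric IgG, whereas Fcgr3 and Fcgr4 encode activating receptors of lower affinity. All of these pair with the Fcer1g chain, whose ITAM motif is phosphorylated by Src-family kinases and then recruits Syk. Fcgr2b encodes the inhibitory receptor, which carries its own ITIM motif, recruits the phosphatase SHIP (Inpp5d) and sets the threshold for activation. Classical monocytes are known to express these receptors, and Fcgr4 is known to be higher in non-classical (Ly6C-low) monocytes.

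In GRCm38, 4 of the 5 genes lie within 275749 bases of chromosome 1: Fcgr2b (ENSMUSG00000026656) at chr1:170958617-170976547 on the minus strand, Fcgr4 (ENSMUSG00000059089) at chr1:171018920-171029761 on the plus strand, Fcgr3 (ENSMUSG00000059498) at chr1:171051174-171064935 on the minus strand, and Fcer1g (ENSMUSG00000058715) at chr1:171229572-171234365 on the minus strand. Fcgr1 (ENSMUSG00000015947) lies apart from them, at chr3:96282909-96293969 on the minus strand. Fcgr2b and Fcgr3 have near-identical stretches, and 238 of the 3628 30-base words in the annotated Fcgr2b transcripts also occurred in Fcgr3. No 30-base word was shared by any pair of the 5 genes within the last 500 bases of their transcripts, the end that this 3′ chemistry counts.

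Each value is a number of unique molecular identifiers (UMIs), of which every captured transcript end carries 1. They are given as UMIs per 1000000 UMIs of the mouse (CPM), a scale that does not depend on transcript length and so lets genes be set side by side. The 1227 male cells gave between 330586 and 1108320 UMIs per mouse, from 49 to 206 cells, and the 6641 female cells gave between 2720012 and 18838905 UMIs per mouse, from 239 to 1712 cells. Old mice had the deeper cells. Their median depth was 4490 to 8844 UMIs among males, where that of young mice was 3806 to 4456, and 9708 to 13263 among females, where that of young mice was 8281 to 8938. No cell barcode was shared by the 2 pools. All 9 markers of Ly6C-high monocytes were detected in both sexes, and their summed level was 26880 to 33660 CPM among old and 30960 to 33040 CPM among young females, and 16640 to 34020 CPM among old and 35210 to 38550 CPM among young males. Old male 4, with 49 cells, had the lowest sum and the highest neutrophil marker sum, 4407 CPM beside 92.03 to 1735 in the other old males and 90.55 to 4000 in young males.

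Among the 5 genes the common chain was the most abundant. Fcer1g averaged 2539 ± 49.1 CPM in young females and 2472 ± 154 CPM in old females (SD, n = 5 mice in these and all following means of old or young mice), and 3258 ± 104 CPM in young males and 2956 ± 438 CPM in old males. The 3 activating receptor genes together gave 0.145 ± 0.00444 UMIs for each Fcer1g UMI in young females and 0.174 ± 0.0189 in old females. Fcgr3 was the most abundant receptor gene in every group and Fcgr4 the lowest, with Fcgr2b and Fcgr1 between them. In young females the 4 receptors stood apart, at 302 ± 6.70 CPM for Fcgr3, 111 ± 5.35 for Fcgr2b, 58.3 ± 3.06 for Fcgr1 and 7.43 ± 0.975 for Fcgr4. In old females Fcgr1 (113 ± 11.95) and Fcgr2b (111 ± 16.3) were at the same level within their spread, and in old males the ranges of Fcgr1 (21.7 to 125 CPM) and Fcgr2b (81.0 to 109 CPM) also overlapped.

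**Figure D1:**
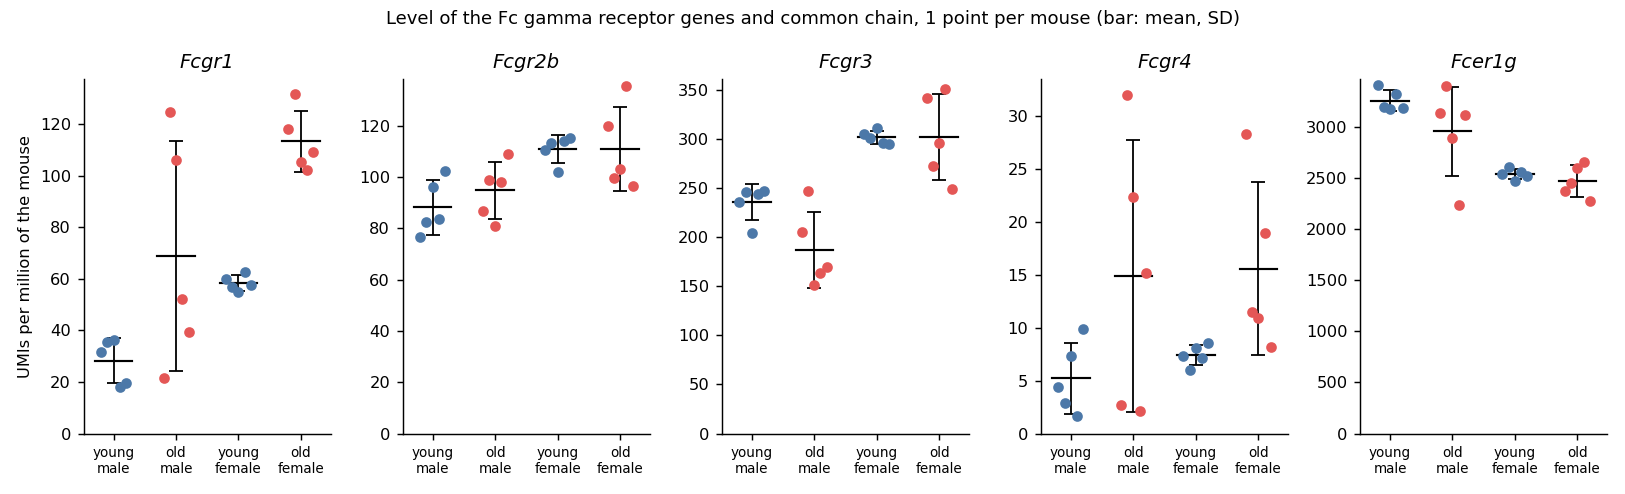
Level of each gene in CPM, UMIs scaled to the total of the mouse (vertical axes, linear, each starting at 0), with 1 point per mouse and the mean and SD of 5 mice for young and old males and females. All 5 old females lie above all 5 young females for Fcgr1, at 102 to 132 against 54.8 to 62.7, whereas Fcgr2b, Fcgr3 and Fcer1g overlap between the ages in both sexes.

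Fcgr1, the high-affinity receptor gene, was higher in old females without overlap. Its level was 118, 132, 105, 102 and 109 CPM in old females 1 to 5 and 59.9, 56.7, 54.8, 62.7 and 57.5 CPM in young females 1 to 5. The lowest old female was therefore above the highest young female, and the means differed by 1.94-fold (4259 UMIs in old against 2482 in young mice). The edgeR fit gave a log2 fold change of 0.95 ± 0.066 (SE), and it stayed between 0.90 and 0.99 when any single mouse was left out.

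In males Fcgr1 varied more among the old mice. The old males had 21.7, 125, 106, 52.3 and 39.3 CPM and the young males 31.7, 35.6, 36.4, 18.0 and 19.8 CPM. The groups overlapped through old male 1, which lay among the young mice, while the other 4 old males exceeded every young male. The log2 fold change was 1.26 ± 0.40 from 219 UMIs in old and 102 in young males, and ranged from 0.89 without old male 2 to 1.58 without old male 1.

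Fcgr4, an activating receptor gene, was scarce and showed the largest spread among old mice relative to its mean. Old females had 28.3, 11.5, 10.9, 18.9 and 8.17 CPM (589 UMIs in all) and young females 7.32, 6.01, 8.09, 7.17 and 8.55 CPM (305 UMIs). Of the old females, 4 were above every young female and old female 5 was within their range. The means differed by 2.09-fold, with a log2 fold change of 1.06 ± 0.27 that fell to 0.80 without old female 1, the highest of the 5. In males Fcgr4 had 3, 21, 16, 1 and 5 UMIs in old mice and 4, 2, 5, 1 and 6 UMIs in young mice. Old males 2, 3 and 5 were above all young males at 31.9, 22.3 and 15.1 CPM, while old males 1 and 4 lay within the young range, and the gene did not pass the low-count filter of the fit in males.

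The inhibitory receptor gene Fcgr2b overlapped between the ages in both sexes. It had 120, 99.7, 103, 135 and 96.6 CPM in old females and 110.5, 113, 102, 114 and 115 CPM in young ones, which gave a log2 fold change of 0.01 ± 0.081. In males it had 86.6, 98.9, 81.0, 98.0 and 109 CPM in old and 76.4, 82.5, 96.1, 83.4 and 102 CPM in young mice, which gave 0.08 ± 0.13. Neither sex showed a shift beyond the spread of the mice.

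Fcgr3, the most abundant receptor gene, also overlapped between old and young females. Old females had 342, 272, 296, 351 and 249 CPM, and young females had 304, 301, 311, 296 and 295 CPM. The old mice spread on both sides of the narrow young range, and the log2 fold change was 0.01 ± 0.078. In males Fcgr3 had 205, 246, 151, 163 and 169 CPM in old mice and 236, 246, 204, 244 and 247 CPM in young mice. There, 3 of the 5 old males were below every young male, and the log2 fold change was -0.32 ± 0.12.

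Fcer1g, the common chain gene, had a log2 fold change of -0.03 ± 0.037 in females, where the ranges overlapped (2278 to 2654 CPM in old, 2474 to 2607 in young mice). In males it was -0.14 ± 0.086, with 3133, 3398, 2894, 2240 and 3116 CPM in old mice and 3411, 3196, 3175, 3321 and 3187 CPM in young mice. Of the old males, 4 were below every young male. The lowest value belonged to old male 4, the mouse with the lowest sum of monocyte markers, and without that mouse the log2 fold change was -0.054 ± 0.052.

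Over all genes, 2.02% of the 10053 genes tested in females were called higher in old mice by edgeR's quasi-likelihood test at an adjusted p under 0.05, and 3.44% were called in either direction. Of the 5 genes, Fcgr1 and Fcgr4 were among those called higher, which follows from how the genes were picked. The Fcgr1 call held without any single female, while that of Fcgr4 was lost without old female 1, old female 4 or any one of the young females. Since the genes were picked on this contrast, these calls describe its dependence on single mice and do not test it. In males 0% of 5656 genes were called by edgeR (unadjusted, 618 were below 0.05, and DESeq2 called 12 higher and 10 lower), and so none of the 4 tested members was. The median log2 fold change over the members was 0.01 in females and -0.03 in males, beside -0.00 and 0.01 over all genes.

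The mixture of receptor UMIs also differed between the ages in females. Fcgr1 made up 12.2% ± 0.586 of all Fc gamma receptor UMIs in young females (11.5% to 13.1%) and 21.2% ± 3.46 in old females (16.8% to 25.6%). In males it made up 7.96% ± 2.57 in young and 17.9% ± 9.26 in old mice, with overlapping ranges. UMIs of the 3 activating receptors per UMI of the inhibitory Fcgr2b came to 3.32 ± 0.215 in young females (3.14 to 3.67) and 3.90 ± 0.270 in old females (3.49 to 4.17), which overlapped. In males this ratio was 3.09 ± 0.436 in young and 2.89 ± 0.855 in old mice. The ratio of Fcgr3 to Fcgr2b alone was 2.73 ± 0.199 in young females and 2.73 ± 0.139 in old females, and 2.71 ± 0.416 in young males and 1.99 ± 0.419 in old males.

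The sequences before the annotated starts of the 2 genes that were higher in old females are shown. They were chosen because both genes also differed most of the members with an interferon-gamma-induced class of cells in females, given further on. This was not particular to that class, since in females both genes also differed most of the members in every other marker class. Whether interferon-gamma has a part in the age difference was not tested. Each stretch is the 250 bases before the RefSeq start on the gene's own strand (GRCm38.p6), Fcgr1 at chr3:96293970-96294219 on the minus strand and Fcgr4 at chr1:171018676-171018925 on the plus strand, with matches to any of 3 motifs in capitals.
Fcgr1: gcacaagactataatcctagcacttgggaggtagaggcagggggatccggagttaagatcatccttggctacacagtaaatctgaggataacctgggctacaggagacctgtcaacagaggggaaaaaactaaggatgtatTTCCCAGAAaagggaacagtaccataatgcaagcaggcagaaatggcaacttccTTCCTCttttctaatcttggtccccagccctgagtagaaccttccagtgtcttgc
Fcgr4: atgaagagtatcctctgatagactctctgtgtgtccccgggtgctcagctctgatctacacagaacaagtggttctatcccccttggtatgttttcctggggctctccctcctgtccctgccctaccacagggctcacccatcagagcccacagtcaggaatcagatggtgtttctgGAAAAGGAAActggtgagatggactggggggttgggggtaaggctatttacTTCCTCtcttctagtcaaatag
The motifs, searched on both strands, were the interferon-gamma-activated site TTCNNNGAA, the core of the interferon-stimulated response element (2 copies of GAAA with 2 bases between them), and the PU.1 core GAGGAA, PU.1 being a transcription factor of the myeloid lineage. In Fcgr1 the match to TTCNNNGAA lay 109 to 101 bases before the start and that to GAGGAA 55 to 50 bases before it. In Fcgr4 the match to the response element core lay 73 to 64 bases and that to GAGGAA 22 to 17 bases before the start. Fcgr3 held a match to GAGGAA only, while Fcgr2b and Fcer1g held none of the 3. The windows of Fcgr3 (chr1:171059404-171059653 and chr1:171059395-171059644) and Fcgr2b (chr1:170976072-170976321) lie inside the gene spans given above. The bases before the outer starts of those spans were not compared, so the members were not searched alike. Over all 32851 RefSeq windows of this length, 7.02% held TTCNNNGAA, 2.98% the response element core and 23.3% GAGGAA. These are matches of letters and not measured binding sites.

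The next question was in how many cells each receptor gene was seen. A cell counted as positive with at least 1 UMI. Fcer1g was seen in 99.1% to 99.95% of cells on average in the 4 groups, and Fcgr3 in 92.1% ± 1.53 of cells in young females and 92.7% ± 1.78 in old females. Fcgr1 was seen in 37.3% ± 1.93 of cells in young and 64.1% ± 6.06 in old females, and in 10.96% ± 2.49 and 30.4% ± 16.1 in young and old males. Fcgr4 was seen in 6.72% ± 1.93 of cells in young and 14.8% ± 6.00 in old females. Since cells of old mice were deeper, the shares were taken again after every cell had been thinned to 2000 UMIs, which left out 4 female and 58 male cells with fewer.

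At equal depth Fcgr1 was seen in 10.9, 12.6, 13.8, 13.5 and 12.3% of cells in young females 1 to 5 and in 22.7, 24.7, 23.4, 22.65 and 23.35% in old females 1 to 5. No old female overlapped with a young one, and the difference between the group means was 10.7 percentage points, against 26.9 without thinning. In males the thinned shares were 5.98% ± 1.23 in young and 13% ± 6.52 in old mice, with old male 1 (5.05%) inside the young range of 5.04% to 8.06%. Fcgr4 was seen in 1.82% ± 0.468 of thinned cells in young females (1.30% to 2.51%) and 4.16% ± 1.98 in old females (1.78% to 6.49%), which overlapped. Fcgr3 (47.7% ± 1.76 in young, 47.5% ± 6.34 in old females) and Fcgr2b (19.4% ± 2.04 and 22.5% ± 3.93) overlapped between the ages.

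**Figure D2:**
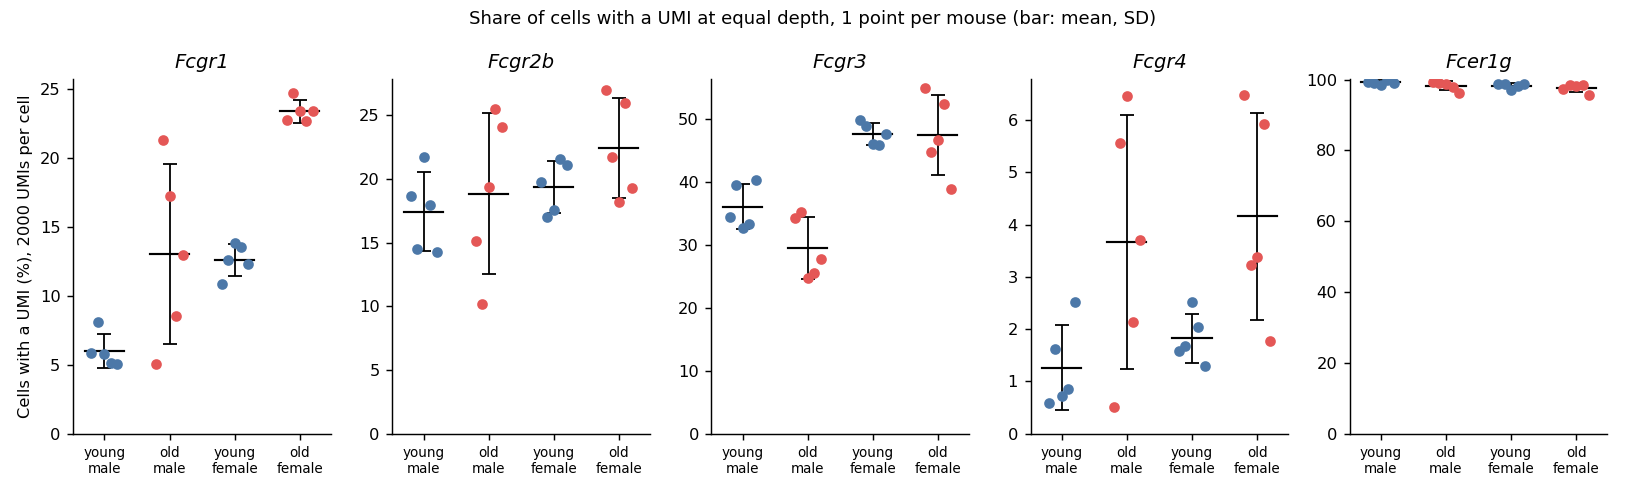
Percent of cells positive for each gene (1 UMI or more) after thinning every cell to 2000 UMIs (vertical axes in percent), with 1 point per mouse and the mean and SD of 5 mice per group. Fcgr1 separates old from young females, at 22.65% to 24.7% against 10.9% to 13.8% of cells, and Fcer1g is seen in over 95% of cells in every mouse.

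Most thinned cells positive for Fcgr1 held a single UMI of it. In old females 18.4% ± 0.583 of cells had 1 UMI, 4.09% ± 0.767 had 2 and 0.894% ± 0.421 had 3 or more. In young females the shares were 10.4% ± 0.883, 1.65% ± 0.504 and 0.577% ± 0.188. Each of the first 2 steps was thus higher in old females, and the third overlapped (0.508% to 1.47% against 0.418% to 0.877%). Among cells with a UMI, unthinned, the level of Fcgr1 was 191 ± 10.45 CPM in old and 179 ± 14.4 CPM in young females, and 234.5 ± 45.5 and 263 ± 40.2 CPM in old and young males, each pair overlapping. This level depends on the depth of the cells, which was greater in old mice. It was not read as a level per expressing cell.

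RNA that is free in the suspension can add UMIs to cells that do not express a gene, and no cell type in these sorts is certain to lack the receptors. In females, 36 cells held UMIs of at least 3 T or NK cell genes (median 11703 UMIs). Of these, 14 held Fcgr1, or 38.9% (exact 95% binomial interval 23.1% to 56.5%, for counting error only), against 47.8% of all female cells (median 9587 UMIs), and 3 held Fcgr4, or 8.33%. The unthinned share of 36.1% to 40.6% in young females was within that interval, so positivity for Fcgr1 in young females was not read as expression per cell. These 36 cells were not free of monocyte transcripts, since 27 of them held Csf1r, the receptor gene of the monocyte growth factor. In males, 15 cells held at least 3 basophil or mast cell genes (median 1499 UMIs). Of these, 0 held Fcgr1 or Fcgr4, with an upper limit of 21.8% for each (exact 95% binomial interval). The shares in all male cells, 18.2% for Fcgr1 and 3.83% for Fcgr4, lie under that limit, so no difference was detectable in these few shallow cells, of which 12 held Fcgr3 and 15 held Fcer1g, genes that basophils are known to express.

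Receptor genes were also looked for together in the same thinned cell. In young females 39.0% ± 0.678 of cells held none of the 4 receptor genes, 42.7% ± 0.920 held 1, 16.1% ± 0.942 held 2 and 2.11% ± 0.659 held 3. In old females the shares were 32.9% ± 5.56, 42.2% ± 2.59, 19.9% ± 2.06 and 4.78% ± 1.42. The share with 3 genes was 3.05% to 6.22% in old and 1.47% to 3.04% in young females, without overlap, though by a small margin. In males about the same share of cells held none, 50.6% ± 1.31 in young and 51.6% ± 1.71 in old mice.

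In females Fcgr1 and Fcgr4, the genes higher in old mice, were seen in the same cell more often than their separate shares would give. Co-detection was known when the genes were picked, so this is a description, and gene pairs in general were not compared. In young females Fcgr1 was seen in 31.3% ± 3.61 of cells with Fcgr4 and in 12.3% ± 1.12 of cells without it, a mean log2 odds ratio of 1.81 ± 0.294. In old females the shares were 34.8% ± 8.14 and 22.8% ± 1.01, a log2 odds ratio of 0.89 ± 0.480. The ranges of the 2 ages lay close together (1.43 to 2.19 against 0.48 to 1.42). A small constant was added to every count before each ratio was taken, which moves ratios of few cells by more than this gap. The gap was therefore not read as a difference. The odds ratio was above 0 on the log2 scale in all 10 females, and without thinning it was 0.52 ± 0.327 and 0.73 ± 0.340, so its size and the order of the ages changed with depth. These ratios rest on few cells, since 1.30% to 6.49% of the thinned cells of a female held Fcgr4. Fcgr2b with Fcgr4 gave 0.55 ± 1.22 in young and 0.90 ± 0.803 in old females. For the inhibitory Fcgr2b with Fcgr3 the log2 odds ratio was 0.75 ± 0.279 in young and 0.37 ± 0.296 in old females, and for Fcgr1 with Fcgr2b it was 0.60 ± 0.712 and 0.45 ± 0.370.

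To see in which monocytes the receptors were higher, the cells of each mouse were split by 5 marker classes. This contrast was not used to pick the genes, but the class lists were chosen with earlier results of these data known. The p-values by class are given with that limit. Each class was the 20% of the cells of a mouse with the largest share of UMIs on a gene list, compared with the other cells of the same mouse, with the mouse as a block. A class is a range of a score and not a cell type, and no member was in any list. In females 1327 high cells were compared with 5314 others and in males 244 with 983. Unless the ages are named, means by class, and by antibody further on, are over the 10 mice of a sex, old and young together. Their SD therefore also holds the difference between the ages. A median of 3.84% to 12.3% of the cells of a female and 4.01% to 11.7% of those of a male had scores within 10% of the limit, and the granule list shares Camp, Ngp and Ltf with the neutrophil markers and Chil3 with the monocyte markers.

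In females all 5 genes were called in all 5 classes, higher in interferon-gamma-induced, MHC-II and Ly6C-low transition cells and lower in granule and mitosis cells. This has to be read against the share of all genes called, which was 59.3% for the interferon-gamma-induced class, 59.7% for MHC-II, 73.5% for granule, 58% for mitosis and 60.4% for Ly6C-low transition. The median log2 fold change of the 5 genes was 0.69, 1.15, -0.68, -0.56 and 0.64 in these classes, while that of all genes lay between -0.03 and 0.03. In males 28.9%, 32.7%, 35.6%, 24.4% and 33.9% of genes were called in the same order of classes. Of the members tested there, 3 of 4 were called higher in interferon-gamma-induced cells, 4 of 4 in MHC-II cells and 4 of 4 in Ly6C-low transition cells, 2 of 3 were lower in granule cells and 3 of 4 in mitosis cells. Fcgr4 did not pass the filter in males.

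High cells of the interferon-gamma-induced, MHC-II and Ly6C-low transition classes were shallower than the others (a median of 7322 to 7709 UMIs against 10993 to 11066 in females), and those of the granule and mitosis classes were deeper (17133 to 18364 against 8527 to 8914). With every cell thinned to 2000 UMIs, 20 of 20 tested comparisons in females were called in the same directions (Fcgr4 then did not pass the filter), and 9 of 11 in males. The log2 fold changes of Fcgr1 in females at that depth were 1.27 for the interferon-gamma-induced, 0.89 for the MHC-II and 0.42 for the Ly6C-low transition class. For these values and the thinned shares by class below, the classes were picked anew from the thinned counts, so the high cells were not the same set. Before thinning, the interferon-gamma-induced list held a median of 0.114% of UMIs in high and 0.027% in other cells of females. Few list UMIs thus remained at 2000 per cell, and depth and the new choice of cells cannot be told apart.

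**Figure D3:**
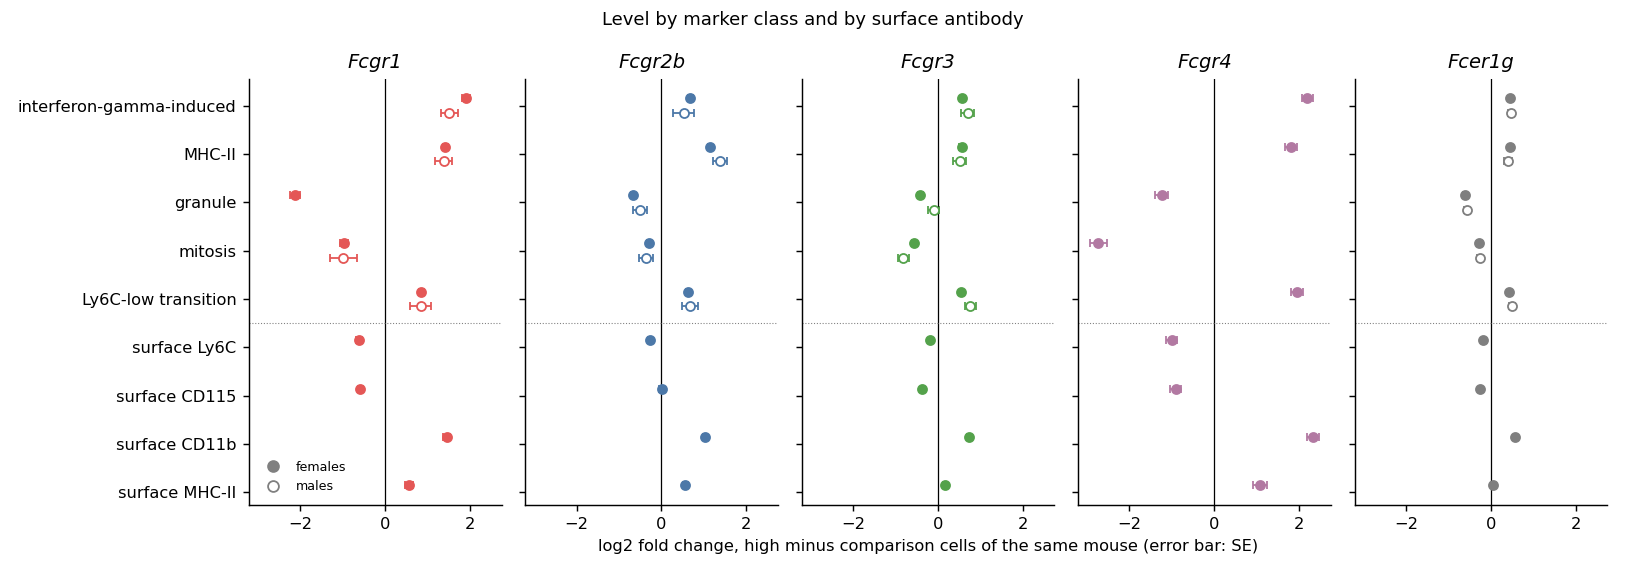
Log2 fold change of each gene (1 panel per gene, error bars are SE) between the high cells of a class and the other cells of the same mouse, above the dotted line, and between the cells with most and least surface antibody, below it, in 10 females (filled) and 10 males (open). In females Fcgr1 ranges from -2.12 in the granule class to 1.90 in the interferon-gamma-induced class and Fcgr4 from -2.73 in the mitosis class to 2.34 by surface CD11b, while Fcer1g stays between -0.62 and 0.57.

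In females Fcgr1 was highest in interferon-gamma-induced cells, defined by a list rich in guanylate-binding protein and immunity-related GTPase genes. It averaged 222 ± 60.4 CPM in the high cells and 64.2 ± 27.95 CPM in the others over the 10 females, and was higher in all 10. The log2 fold change was 1.90 ± 0.094 (edgeR's quasi-likelihood test, adjusted p = 5.95e-15). In males it was 103 ± 74.9 against 39.3 ± 32.3 CPM, higher in 10 of 10 mice, with a log2 fold change of 1.52 ± 0.19 (adjusted p = 3.29e-06). Male MHC-II cells had a similar level, 98.1 ± 79.4 against 40.1 ± 30.9 CPM, so these classes were not ranked in males. At equal depth 29.05% of high and 15.2% of other cells of females held a UMI of it.

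Granule cells, defined by a list that holds Elane, Mpo and Ngp as well as S100a8, S100a9 and Chil3, had the least Fcgr1. Single genes of the list were not compared between the classes. Its level was 25.7 ± 15.4 CPM against 112 ± 38.25 CPM in the other cells, lower in 10 of 10 females, a log2 fold change of -2.12 ± 0.11 (edgeR adjusted p = 8.32e-14). The thinned share of positive cells was 6.76% against 20.8%, a difference between cells of the same libraries. In males the level was 24.9 ± 31.1 against 57.5 ± 44.0 CPM and the gene was not tested.

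Fcgr4 had the widest range of the receptor genes across classes. In females its level was 35.0 ± 23.1 CPM in interferon-gamma-induced cells against 7.67 ± 4.26 in the others, and 31.8 ± 19.15 CPM in Ly6C-low transition cells against 8.26 ± 5.12, and at equal depth 5.25% against 2.43% and 5.58% against 2.35% of cells held a UMI of it. The log2 fold changes were 2.19 ± 0.14 and 1.95 ± 0.14 (edgeR adjusted p = 3.91e-13 and 4.83e-14), with 10 of 10 mice higher in each. In mitosis cells, defined by a list that holds Mki67 and Top2a, it fell to 2.42 ± 2.59 CPM against 15.3 ± 8.92, a log2 fold change of -2.73 ± 0.20 (adjusted p = 3.71e-11). The Ly6C-low transition list holds Nr4a1, Ace and Treml4, genes of the conversion to non-classical monocytes.

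Fcgr2b, the inhibitory receptor gene, was highest in MHC-II cells. In females its level was 207 ± 25.3 CPM in MHC-II cells against 95.6 ± 10.7 CPM, higher in 10 of 10 mice (log2 fold change 1.15 ± 0.052, edgeR adjusted p = 1.14e-16). In males it was 185.5 ± 57.2 against 75.3 ± 9.54 CPM, again in 10 of 10 mice (log2 fold change 1.39 ± 0.17, adjusted p = 7.90e-07). Fcgr3 differed less in the same cells, with log2 fold changes of 0.57 ± 0.062 in females and 0.52 ± 0.15 in males. UMIs of Fcgr2b per UMI of Fcgr3 accordingly came to 0.516 ± 0.0849 in MHC-II cells against 0.336 ± 0.0207 in the other cells of females, and 0.723 ± 0.231 against 0.388 ± 0.0966 in males, higher in 10 of 10 mice of each sex. This ratio was looked at after the values of both genes had been seen and was not tested. In interferon-gamma-induced cells of females it was higher in 6 of 10 mice (0.392 against 0.363), and in granule cells in 0 of 10 (0.320 against 0.384). A higher ratio was not particular to MHC-II cells. In mitosis cells it was higher in 9 of 10 females (0.427 against 0.352) and 8 of 10 males (0.555 against 0.432). By surface antibody, given further on, it was higher in 10 of 10 females for CD115 (0.417 against 0.317) and 9 of 10 for CD11b (0.425 against 0.352).

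In females Fcgr3 and Fcer1g were also higher in the interferon-gamma-induced, MHC-II and Ly6C-low transition classes and lower in the other 2. Fcgr3 was at 416 ± 58.3 CPM in Ly6C-low transition cells against 284 ± 25.3 (log2 fold change 0.55 ± 0.037, edgeR adjusted p = 1.66e-14) and at 227 ± 16.3 CPM in mitosis cells against 334 ± 39.7 (-0.56 ± 0.044, adjusted p = 1.30e-10). Fcer1g ranged from 1788 ± 169 CPM in granule cells to 3244 ± 159 CPM in Ly6C-low transition cells, with log2 fold changes between -0.62 and 0.46. In males Fcgr3 was not called in granule cells (-0.10 ± 0.12, edgeR adjusted p = 0.55), and Fcgr2b was not called in interferon-gamma-induced (0.52 ± 0.24, adjusted p = 0.11) or mitosis cells (-0.36 ± 0.17, adjusted p = 0.14).

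The classes overlapped, since 35.5% of interferon-gamma-induced cells of females were also MHC-II cells and 27.1% were also Ly6C-low transition cells, against 8.44% in the granule and 5.43% in the mitosis class. The class differences are therefore not independent of each other.

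The old-against-young difference of Fcgr1 was also present inside the classes, which take a fixed 20% of each mouse. The score limit was set within each mouse, so the classes do not hold the score equal between the ages. Scores by age were not compared. In interferon-gamma-induced cells of females Fcgr1 was at 268 ± 47.6 CPM in old and 176 ± 25.8 CPM in young mice, where 4 of 5 old mice were above all young ones. In the other cells it was at 88.95 ± 14.9 against 39.4 ± 1.49 CPM without overlap. In MHC-II cells it was 225 ± 19.4 against 134.5 ± 22.5 CPM and in the other cells 95.4 ± 11.3 against 46.15 ± 3.32 CPM, both without overlap. Mitosis cells showed 80.1 ± 20.9 against 28.0 ± 3.45 CPM, also without overlap, and granule cells 35.6 ± 16.2 against 15.8 ± 4.95 CPM with overlap. The log2 ratio of old to young means thus lay between 0.60 in interferon-gamma-induced cells and 1.52 in mitosis cells. In males the ratio was above 0 in both parts of all 5 classes, from 0.90 to 1.89. Old and young males overlapped in every part but 1, with 2 to 4 of 5 old males above all young ones. The exception was the Ly6C-low transition cells, where all 5 old males (62.6 to 133 CPM) were above all young males (12.1 to 60.8 CPM), on 47 and 21 UMIs. High cells of a class numbered as few as 10 in a male.

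**Figure D4:**
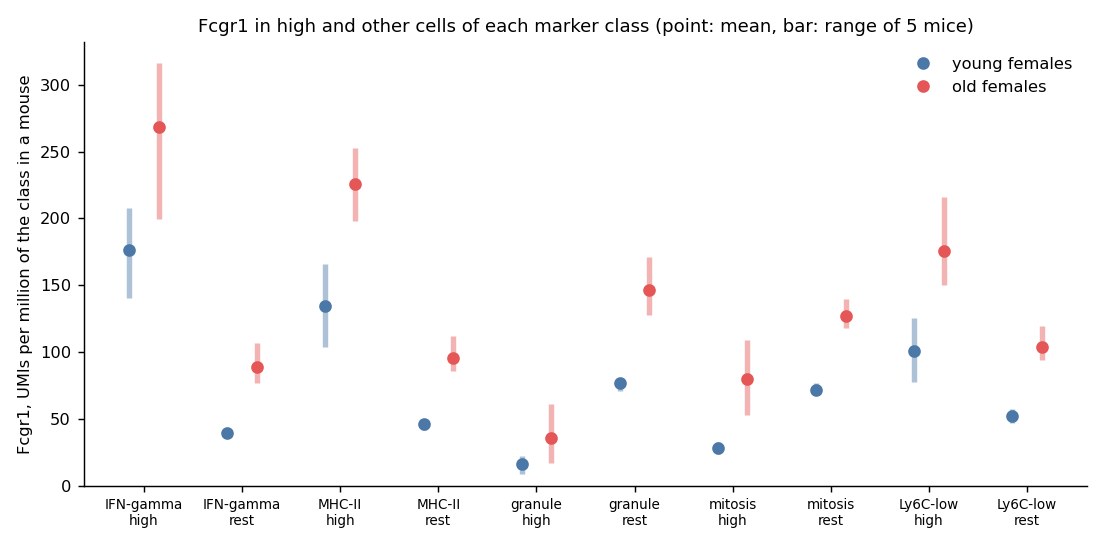
Level of Fcgr1 in CPM, scaled to the UMIs of the class in a mouse (vertical axis, from 0) in the high cells and the other cells (rest) of each marker class in females, with the mean (point) and the range (bar) of 5 young and 5 old mice. Old mice lie above young mice without overlap except in the high cells of the interferon-gamma-induced and granule classes, where the ranges overlap.

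The female pool also carried antibodies to surface proteins, which gave a second way to order the cells that does not rest on RNA. For each of 4 antibodies, the cells of each female were split into 3 equal parts by antibody count, and the high part was compared with the low part, with 2209 cells on each side and the mouse as a block. Cells with much CD11b, an integrin chain of the complement receptor, had more of all 5 genes, against 71.6% of all genes called in this comparison. Fcgr4 was at 24.8 ± 17.6 CPM against 5.16 ± 2.09 (log2 fold change 2.34 ± 0.14, edgeR adjusted p = 8.29e-14) and Fcgr1 at 134 ± 40.7 against 50.8 ± 24.3 CPM (1.46 ± 0.085, adjusted p = 3.24e-14), each higher in 10 of 10 mice. Fcgr2b was at 165 ± 18.1 against 82.3 ± 7.22 CPM (1.02 ± 0.046, adjusted p = 2.11e-16). The CD11b-high cells were shallower, with a median of 7887 UMIs per cell against 14368.

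Cells with much surface Ly6C had less of all 5 genes, where 21.7% of all genes were called. The log2 fold changes were -0.60 ± 0.072 for Fcgr1, -1.01 ± 0.12 for Fcgr4 and between -0.26 and -0.17 for the other 3 genes, and Ly6C-high cells were deeper (a median of 13853 against 8476 UMIs). With antibody counts scaled by the centred log-ratio, 1852 genes were called higher and 1965 lower of 8726, and the log2 fold changes were -1.13 ± 0.092 for Fcgr1, -2.04 ± 0.15 for Fcgr4, -0.78 ± 0.056 for Fcgr2b, -0.36 ± 0.050 for Fcgr3 and -0.28 ± 0.023 for Fcer1g. By surface CD115, the growth factor receptor encoded by Csf1r, 38.8% of genes were called, and 4 of the 5 members were lower in the high part. Fcgr2b was the exception (111 ± 11.2 against 110 ± 19.3 CPM, log2 fold change 0.01 ± 0.054, edgeR adjusted p = 0.92, and -0.31 ± 0.055 when antibody counts were scaled by the centred log-ratio). With the same scaling Fcgr1 was at -0.94 ± 0.062 and Fcgr4 at -1.49 ± 0.14, against -0.58 ± 0.055 and -0.91 ± 0.13 without it. CD115 antibody counts were low, with a median of 9 in the high and 1 in the low part. The CD115-high cells were also deeper, with a median of 13770 UMIs per cell against 8469.

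By surface MHC-II 15.5% of genes were called, and 4 of the 5 members were higher in the high part. Fcgr4 had a log2 fold change of 1.08 ± 0.16, Fcgr1 of 0.58 ± 0.091 and Fcgr2b of 0.57 ± 0.055 (edgeR adjusted p = 4.68e-05, 7.28e-05 and 1.12e-07), the last in 10 of 10 mice. Fcer1g was not called (0.06 ± 0.036, adjusted p = 0.27), and Fcgr3 differed by 0.18 ± 0.045 (adjusted p = 0.0077). With centred log-ratios the log2 fold changes were 0.72 ± 0.15 for Fcgr4, 0.31 ± 0.077 for Fcgr1 and 0.31 ± 0.058 for Fcgr2b, and Fcgr3 was no longer called (0.11 ± 0.046, adjusted p = 0.22). Here the 2 sides were of similar depth, a median of 9315 against 9924 UMIs per cell.

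Beyond the 5 members, 107 other pathway genes in 6 lists were examined for age, covering related receptors as well as downstream signalling and phagocytosis. These lists did not enter the choice of the 5 genes, but they were written with earlier results of these data known. The p-values below are given with that limit, since the lists may not be independent of the age contrast. In females 85 were tested, 3 were higher and 2 lower in old mice, which is to be set beside the 3.44% of all genes called. The higher genes were Clec4e (Mincle, a receptor that signals through Fcer1g), at 30.9 ± 5.81 CPM in old and 20.6 ± 2.97 CPM in young females (log2 fold change 0.65 ± 0.12, edgeR adjusted p = 0.0083), Pirb, an inhibitory receptor for MHC class I, at 265.0 ± 30.5 against 215 ± 3.64 CPM (0.31 ± 0.065, adjusted p = 0.015), and Lair1, an inhibitory receptor for collagen, at 38.7 ± 4.91 against 29.7 ± 3.57 CPM (0.40 ± 0.098, adjusted p = 0.035). The lower genes were Clec4b1, a C-type lectin gene, at 22.7 ± 1.76 against 29.5 ± 0.867 CPM (-0.37 ± 0.066, adjusted p = 0.0058), and Clec12a, an inhibitory lectin receptor, at 190 ± 21.0 against 230 ± 3.37 CPM (-0.27 ± 0.063, adjusted p = 0.028). Old and young females did not overlap for Pirb, Clec4b1 and Clec12a. The number of calls was 11 without old female 4, and 3 without old female 1 or without young female 1, 3, 4 or 5.

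By list, 0 of 26 tested ITAM kinases and effectors, 0 of 21 actin and phagocytic cup genes, 0 of 6 complement receptor genes and 0 of 3 other Fc receptor genes were called in females, against 3 of 12 other ITAM-type receptors and adaptors and 2 of 17 genes of inhibitory signalling. Pirb was listed with the ITAM-type receptors although it is an inhibitory receptor. Over all 85 genes, 23 had an unadjusted p under 0.05 and the median log2 fold change was -0.03. Among uncalled genes, the kinase genes Fgr (0.26 ± 0.087, edgeR adjusted p = 0.13) and Fyn (0.27 ± 0.11, adjusted p = 0.23) and Fcgrt, which encodes the neonatal Fc receptor (-0.28 ± 0.080, adjusted p = 0.069), were named for the size of their difference within their list. Clec4n (Dectin-2, which also uses Fcer1g) differed by 0.69 ± 0.27 (adjusted p = 0.20), Sla by -0.27 ± 0.14 (0.35), Marcks by -0.23 ± 0.13 (0.38), Myo1f by -0.11 ± 0.050 (0.29), Trim21, a cytosolic Fc receptor gene, by 0.18 ± 0.13 (0.54), and the anaphylatoxin receptor genes C5ar1 and C5ar2 by 0.40 ± 0.20 (0.33) and 0.57 ± 0.34 (0.44).

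In males 0 of 72 tested pathway genes were called by edgeR, with 14 below 0.05 unadjusted, and DESeq2 also called 0. Their median log2 fold change was -0.13, beside 0.01 over all genes, and 20 of 21 actin and phagocytic cup genes and 11 of 14 genes of inhibitory signalling were lower in old males. Of the female calls, Pirb (0.35 ± 0.17) and Lair1 (0.63 ± 0.29) had the same sign in males, Clec12a (-0.20 ± 0.10) and Clec4b1 (-0.26 ± 0.24) did too, and Clec4e did not (-0.26 ± 0.29). None of these male values passed the test (edgeR adjusted p = 0.44 to 0.80), and the difference between the sexes was not tested. Old males had fewer monocyte marker UMIs than young males, and the part of that in the male values was not tested.

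Finally, genes whose level followed each member from mouse to mouse were listed by Pearson's r over the 20 mice, after removing the mean of each sex and age group, among 5650 genes tested in both sexes. These are descriptions, and the mice of a sex share a library and differ in depth. The spreads of the groups were not made equal, so the groups with the widest spread weigh most in r. Fcgr1 ranged from 21.7 to 125 CPM in old males and from 54.8 to 62.7 CPM in young females, and old male 4 had the lowest Fcer1g, 2240 CPM. How far r rests on a few old males was not tested. Fcgr1 was followed most closely by Il4ra (r = 0.83), Tmbim4 (0.81) and Phf11b (0.80), Fcgr2b by Akna (0.80), Casp8 (0.73) and Dync1li1 (0.70), Fcgr3 by Usp3 (0.85), Fgd4 (0.84) and Capzb (0.83), and Fcer1g by Cybb (0.95), Npc2 (0.94) and Mpeg1 (0.93). Cybb encodes a subunit of the phagocyte NADPH oxidase and Il4ra a chain of the interleukin-4 receptor. Among the members, Fcgr3 and Fcer1g had r = 0.56, Fcgr2b and Fcgr3 0.36, and Fcgr1 had -0.12 with Fcgr2b, -0.04 with Fcgr3 and 0.06 with Fcer1g. Fcgr4 was not tested in males and has no value.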

How the data were processed

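Bone marrow monocytes of 20 mice were measured as 1 pooled library per sex. The authors deposited UMI counts per gene, hashtag or antibody and cell barcode, not normalized, made with STAR 2.5.1 and Cell Ranger 4.0.0 on mm10 per the methods, while the headers name version 7.0.0 for males and 3.1.0 for females. Hashtag calls were made with HTODemux (Seurat 5.3.0). All 1227 male barcodes were kept, none of which failed the limits below, although HTODemux called 401 doublets among them (median leading-hashtag share 95.1%). Female barcodes were kept as singlets with over 200 genes and under 5% mitochondrial UMIs, and each cell went to the mouse of its leading hashtag, which differed from the HTODemux call in 134 of 7013 female singlets. Doublets of 1 mouse cannot be seen by hashtag, and no other caller was run.

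Counts were summed per mouse, or per mouse and class, and fitted in edgeR 4.0.16 by quasi-likelihood (R 4.3.3, TMM, filterByExpr, two-sided, Benjamini-Hochberg over all genes tested, 0.05). Simulated data checked the fits. Labels do not say that mice were handled apart, and pooled cells share a library, so p-values measure the spread between mice within a pool. Alternatives were DESeq2 1.42.0, no filter, thinning, other hashtag rules, classes of 10% of cells, centred log-ratios, leaving out a mouse and, chosen after the data were seen, leaving out cells with 3 or more marker genes of another cell type. Members and lists were chosen with earlier results of these data known. Named genes were the members, pathway genes called for age or with the 2 largest changes of their list in females, and the 3 closest genes by correlation. Gene positions are from GENCODE M21, which may differ from the annotation used for counting. The other 2 antibodies were not used here.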

Additional observations from a re-analysis of the deposited data

Results flagged for a closer look

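In each group of 5 mice the highest or lowest value was set against the range of the group, for the level and for the thinned share of each of the 5 genes, which made 40 groups, and chance alone flags about 5% of them. A pair of values stood out. Young male 3 had the lowest Fcgr3 level of the young males, 204 CPM against 236 to 247 CPM in the other 4. Young male 2 had the highest share of thinned cells with a UMI of Fcgr1 among young males, 8.06% against 5.04% to 5.85%, a difference of few cells.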

How the results depend on the processing

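Of the members' age contrast in females, 2 of 5 genes were called by every tool and cell rule tried, and 1 to 2 when a mouse was left out. Fcgr1 was called whichever mouse was left out, while the call of Fcgr4 was lost without old female 1 or 4 or any of the young females. These calls describe stability and do not test the age difference, which was known when the genes were picked. In males 1 member, Fcgr1, was called with no filter on low counts and 0 to 1 without a mouse, the call appearing without old male 1. Pathway genes called numbered 5 in females (3 to 11 without a mouse, 11 without old female 4) and 0 in males (2 with no filter on low counts, 0 to 1 without a mouse). Member calls by class numbered 16 in males, 9 after thinning, 10 in HTODemux singlets and 12 to 17 without a mouse, and 25 in females under all leave-outs, and calls by antibody 18 (18 to 19). The difference in Fcgr1 share in females was 26.9 percentage points, and 10.7 thinned. The log2 odds ratio of Fcgr1 with Fcgr4 in 10 females was 1.35, and 0.62 unthinned. By antibody, the signs that reversed were those of Fcgr2b by surface CD115, -0.31 with centred log-ratios and -0.028 to 0.060 without single mice (0.01 with all), and Fcer1g by surface MHC-II, -0.021 with centred log-ratios. For age, where Fcgr2b and Fcgr3 were near 0, the sign also changed for Fcgr2b in males thinned (-0.066), and in females for Fcgr2b without old female 1 (-0.021), old female 4 (-0.079) or young female 3 (-0.011), and for Fcgr3 without old female 1 (-0.037) or 4 (-0.048) or under the 80% hashtag rule (-0.0011). The causes were not tested. Old and young mice could not be paired, because hashtag numbers only name mice, while the class and antibody comparisons were paired within each mouse. Depth limits Fcgr4 in males, with 46 UMIs in old and 18 in young mice.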
